A study of Mus musculus with 2 samples.

Results

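MicroRNAs (miRNAs) encoded in the Dlk1-Meg3 region were examined in LKS cells and in whole bone marrow ("total BM") of C57BL/6J mice, with 1 single-colour Agilent miRNA array for each. LKS cells (Lin-, cKit+, Sca1+) are lineage-negative marrow cells with Kit and Sca1 on their surface, and they include the haematopoietic stem cells and early progenitors. They came from marrow by magnetic column purification with cell sorting after it, whereas total BM was unsorted. No other treatment or genotype was given in the labels, nor the number or age of the mice. The members were all mouse array names without a trailing star that belong to 44 listed miRNAs of the region, with either arm of the hairpin allowed. This rule gave 53 names (such as mmu-miR-127, written miR-127 below) of the 566 mouse miRNA names on the array. As neither group had a second array, no p-value or SD can be given, and every difference describes these 2 arrays.

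The Dlk1-Meg3 region is imprinted: its protein-coding genes Dlk1 and Rtl1 are expressed from the paternal chromosome, and its long noncoding RNAs Meg3, Rian and Mirg, with the miRNAs, from the maternal one. Some of the miRNAs, among them miR-127, miR-136, miR-431, miR-433 and miR-434, lie antisense to Rtl1 and can cleave its transcript, and a long array of hairpins from miR-379 to miR-410 follows downstream. The miRNAs are best known from brain, placenta and embryo. In mouse blood formation the region is known for its activity in long-term haematopoietic stem cells, which are a small part of the LKS fraction.

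All 53 names matched a RefSeq miRNA gene on mouse chromosome 12, and mature sequences were found for 50 of them. The 5 detected members are shown first, because the differences between the arrays rest on them. Sequences and positions are those of RefSeq on GRCm38.p6, all on the plus strand. The array files name no build and give no probe sequence, and for names without an arm the arm was taken from the miRBase accession in the file. Capitals mark the seed, bases 2 to 8, which pairs with target transcripts.
miR-770-3p, chr12:109563744-109563765: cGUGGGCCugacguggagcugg
miR-341 (3p arm), chr12:109611556-109611576: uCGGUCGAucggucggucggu
miR-370 (3p arm), chr12:109618305-109618326: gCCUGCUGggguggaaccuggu
miR-494 (3p arm), chr12:109715367-109715388: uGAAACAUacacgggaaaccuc
miR-134 (5p arm), chr12:109734145-109734166: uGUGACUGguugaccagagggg

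For contrast, 5 members detected on neither array are shown: the other arm of miR-770, an Rtl1 antisense miRNA, the undetected member with the highest signal, and both ends of the downstream hairpin array.
miR-770-5p, chr12:109563710-109563731: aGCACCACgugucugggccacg
miR-127 (3p arm), chr12:109592888-109592909: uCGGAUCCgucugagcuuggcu
miR-136 (5p arm), chr12:109595331-109595352: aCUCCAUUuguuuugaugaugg
miR-379 (5p arm), chr12:109709065-109709085: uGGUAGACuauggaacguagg
miR-410 (3p arm), chr12:109743764-109743784: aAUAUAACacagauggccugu

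The 50 sequences held 50 different seeds, so none of these members shared a seed with another. No other mouse mature sequence in the RefSeq table had the seed of a detected member. Outside the region, 1 array name shared a seed with a member: miR-362-3p has the seed of miR-329. It was detected on both arrays, with signals of 10.8 ± 2.87 in LKS cells, against 26.9 ± 3.58 in total BM, while miR-329 was detected on neither.

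Few members were detected by the call of 0 or 1 that the authors deposited with each signal. The LKS array detected 1 of 53 names (1.89%), against 17.3% of all mouse names on that array. The total BM array detected 5 of 53 (9.43%), against 25.6% of all mouse names. miR-494 was detected on both arrays, miR-134, miR-341, miR-370 and miR-770-3p in total BM only, and the other 48 members on neither. No member was detected in LKS cells only. Every detected member was at least 2-fold lower in LKS cells once arrays were scaled and undetected signals were replaced by a bound, although for miR-341 and miR-770-3p this depended on how the background and the error were treated, and recentring the background also lowered the bounds of miR-370 and miR-134. By the same count 36.7% of the 150 mouse miRNAs detected on at least 1 array were at least 2-fold lower in LKS cells. For the bounds, no scaling and median scaling were the only other scalings tried, so their dependence on scaling was not fully examined.

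The labels were compared with marker miRNAs. These were listed with earlier results of these data known, so the outcome is not an independent check. All 6 miRNAs of stem and progenitor cells (miR-196b, miR-126-3p, miR-130a, miR-99a, miR-155 and miR-125b-5p) had LKS levels at least 2-fold above total BM, and all 8 of mature blood cells (miR-451, miR-144, miR-486, miR-223, both arms of miR-142, miR-150 and miR-342-3p) levels at least 2-fold below it. Of 6 mesenchymal stroma miRNAs, 5 were detected on neither array, among them miR-143, miR-145 and miR-214, and miR-140 was detected on both. Signals are linear intensities after background subtraction and can lie below 0. Each array was divided by the 75th percentile of its signals among the 93 shared detected miRNAs, 242 on LKS and 399 on total BM, which raised every log2 ratio of LKS minus total BM by 0.72. In mixed cells such as total BM, fewer cells of a type and less RNA per cell cannot be told apart.

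**Figure D1:**
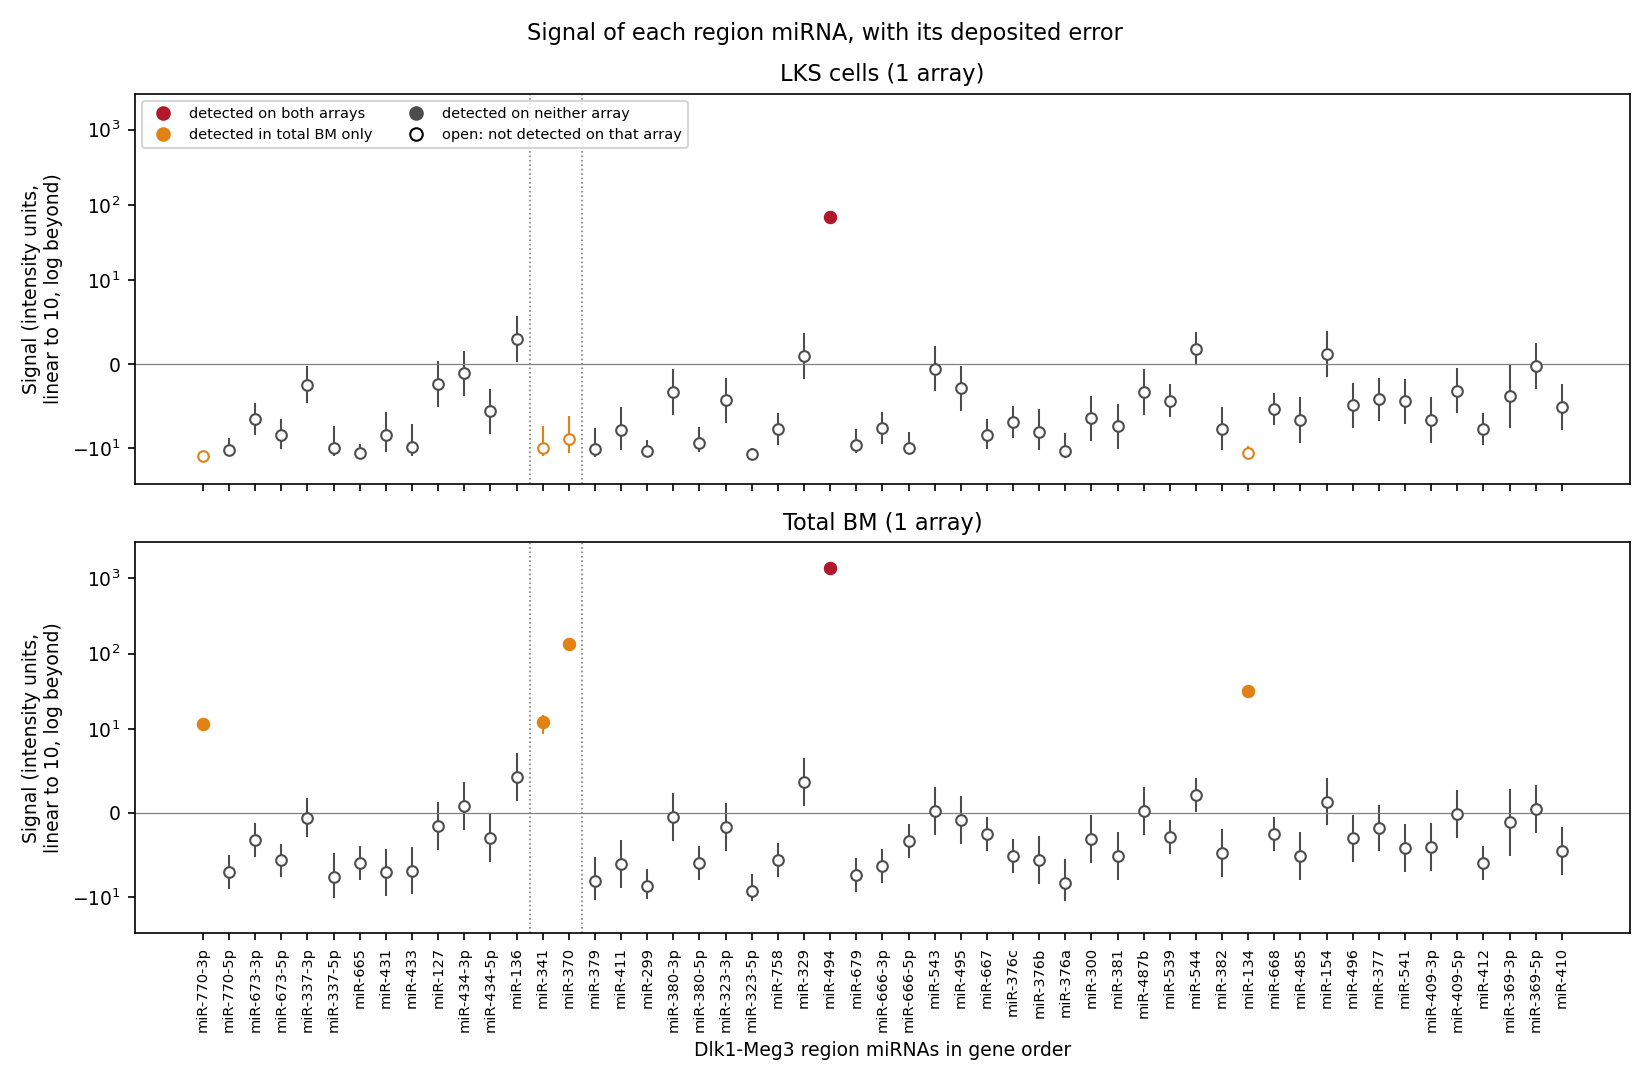
Signal of each of the 53 region miRNAs in gene order along chromosome 12, in LKS cells (upper panel) and total BM (lower panel), with 1 array each. Points are signals in intensity units on an axis that is linear to 10 and logarithmic beyond, bars are the deposited errors, open points were not detected on that array, and dotted lines separate the Meg3 and anti-Rtl1 side, the Rian side and the Mirg side. Apart from miR-494, the LKS signals of all members lie below 10, and in total BM the 5 detected members stand above the rest.

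mmu-miR-494 had the highest signal of the members on both arrays. The signal was 69.3 ± 5.91 intensity units in LKS cells, against 1378 ± 101 in total BM, with the error deposited for each signal. After scaling it was 12.0-fold lower in LKS cells, a log2 ratio of -3.59 ± 0.16, where the error is propagated from both signals and covers these arrays only. This was the 5th lowest ratio among the 93 miRNAs detected on both arrays, of which 18.3% were at least 2-fold lower. The difference stayed on the same side under every scaling tried, but its size did not: the log2 ratio was -1.47 when arrays were scaled on all mouse miRNAs, detected or not, and -4.31 without scaling. The scaling behind -1.47 divides the LKS array by a signal near background, because only 17.3% of all mouse names were detected there. The nearest members on either side in gene order, miR-329 and miR-679, were detected on neither array. miR-329 had signals of 0.980 ± 2.71 in LKS cells, against 3.74 ± 2.87 in total BM, and miR-679 had -9.59 ± 1.91 and -7.40 ± 2.01.

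mmu-miR-370 and mmu-miR-341 are hairpins within the span of Rian and were the only 2 members there. Both were detected in total BM only. The signal of miR-370 was -8.90 ± 2.70 in LKS cells, against 134 ± 10.5 in total BM. With the signals as deposited and scaled, this gave a bound of 27.9-fold lower in LKS cells, and 9.87-fold with each array's background recentred as described below. The 27.9-fold bound sets the total BM signal against the lowest detected LKS signal (2.91), because the LKS signal plus 2 of its errors lay below that. miR-341 had -10.1 ± 2.70 in LKS cells, against 12.3 ± 2.98 in total BM, a bound of 2.57-fold. The total BM signal of miR-341 was thus faint, at 4.14 of its errors, and lowering it by 2 errors left a bound of 1.33-fold.

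mmu-miR-134, a brain-enriched miRNA known to target Limk1 in the dendrites of rat neurons, was detected in total BM only. Its signal was -11.7 ± 1.91 in LKS cells, against 31.6 ± 2.57 in total BM, a bound of 6.58-fold lower in LKS cells that became 2.50-fold with recentred background. Its neighbours in gene order, miR-382 and miR-668, were detected on neither array, with signals of -7.74 ± 2.70 and -5.29 ± 1.91 in LKS cells, against -4.80 ± 2.85 and -2.53 ± 2.01 in total BM.

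miR-770 lies within Meg3, at the upstream end of the region, and both its arms were on the array. The signal of the 3p arm was -12.8 ± 1.91 in LKS cells, against 11.8 ± 2.12 in total BM, a bound of 2.46-fold lower in LKS cells that became 1.58-fold with the total BM signal lowered by 2 errors. The 5p arm was detected on neither array, with signals of -10.7 ± 1.91 in LKS cells, against -7.04 ± 2.01 in total BM. In all, 9 members had both arms on the array, and miR-770-3p was the only detected name among these 18. Of all 566 mouse names, 150 were detected on at least 1 array.

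**Figure D2:**
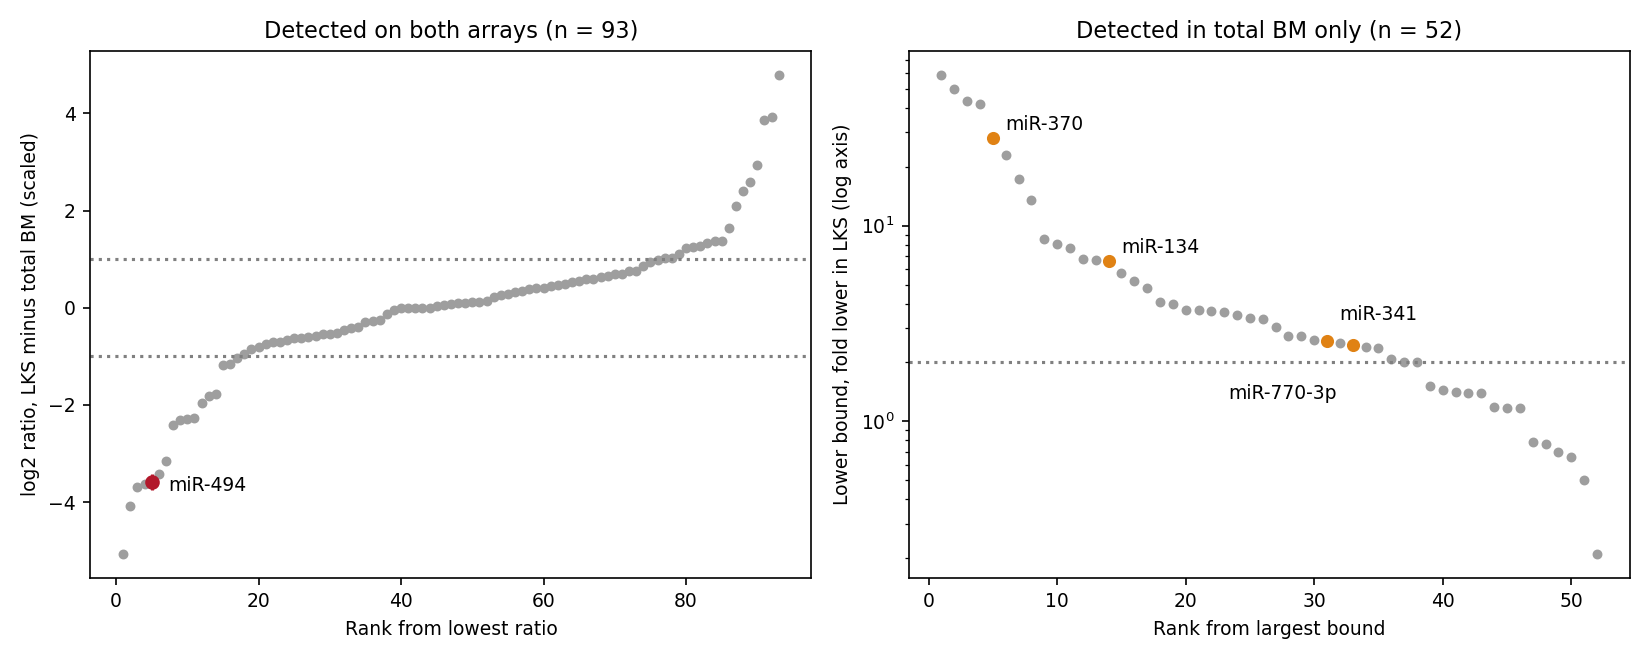
Left, log2 ratio of LKS minus total BM after scaling for the 93 miRNAs detected on both arrays, ranked from the lowest, with miR-494 marked and its error as a bar. Right, lower bound of the fold by which each of 52 miRNAs with a call in total BM only was lower in LKS cells (log axis), ranked from the largest, with the 4 region miRNAs marked. Dotted lines show 2-fold, and miR-370 ranks 5th of 52 and miR-770-3p, the last of the 4, ranks 33rd.

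The bounds of the 4 members detected in total BM only were spread among those of the 52 such miRNAs. miR-370 had the 5th largest bound, miR-134 the 14th, miR-341 the 31st and miR-770-3p the 33rd. All 4 bounds were at least 2-fold, as were 73.1% of the 52. On the LKS array all 4 signals lay more than 3 of their errors below 0, from -12.8 to -8.90, as did 14 of the other 48 miRNAs detected in total BM only. The signal of miR-770-3p was the 13th lowest among the 468 mouse miRNAs not detected in LKS cells, that of miR-134 the 37th, that of miR-341 the 73rd and that of miR-370 the 116th.

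The bounds rest on where the background of each array lies. Among the 416 mouse miRNAs detected on neither array the median signal was -5.64 on LKS and -3.08 on total BM, so a signal of 0 is not the level of an undetected probe on either array. With each array recentred on that median, an alternative chosen after the data were seen, the bounds of miR-370 and miR-134 took the values given above, and those of miR-341 and miR-770-3p were 1.11-fold and 1.07-fold. The members at least 2-fold lower in LKS cells were then 3 of the 5, beside 20.7% of the 150 miRNAs detected on at least 1 array. A difference of signals needs no ratio to a floor. After subtraction of the median LKS minus total BM difference of undetected miRNAs (-2.40), signals were compared without scaling for the brightness of the arrays. The LKS signal was lower by 13.0 combined errors for miR-370, 12.8 for miR-134, 7.77 for miR-770-3p and 4.97 for miR-341. These members were selected by a call in total BM only, so a lower LKS signal was largely set by that choice. Among other miRNAs with this call pattern, the same difference was -19.4 combined errors for miR-705 and -0.401 for miR-324-3p.

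**Figure D3:**
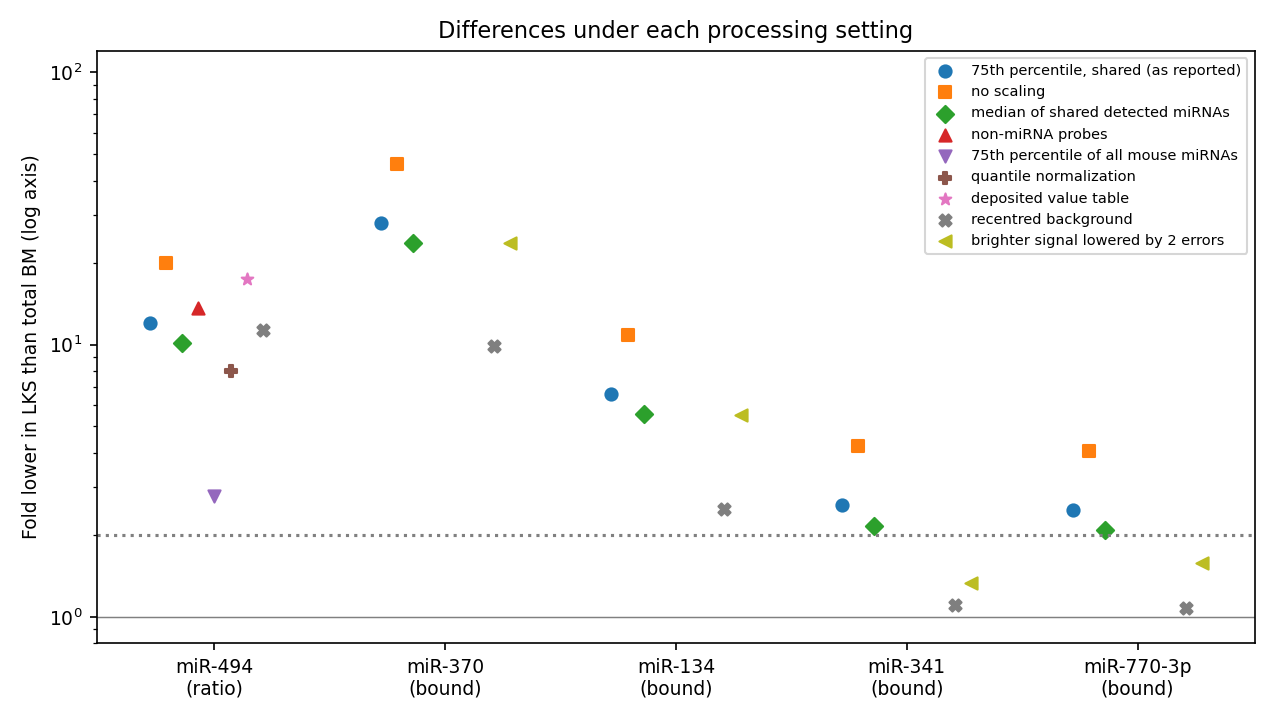
Fold by which each detected region miRNA was lower in LKS cells than in total BM (log axis) under each processing setting. The value for miR-494 is a ratio of 2 detected signals and the other 4 are lower bounds. The settings applied to each keep miR-494, miR-370 and miR-134 above 2-fold (dotted line). miR-341 and miR-770-3p drop below it with recentred background and with the brighter signal lowered by 2 errors. Scaling on non-miRNA probes or on all mouse miRNAs, quantile normalization and the deposited value table are shown for miR-494 only, not for the bounds.

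The detected members did not lie side by side along the chromosome, except for miR-341 and miR-370, which are neighbours among the members. On the Meg3 and anti-Rtl1 side, 12 of 13 names, all but miR-770-3p, were detected on neither array, as were 416 of 566 mouse names. All the Rtl1 antisense miRNAs listed above were among these 12. miR-127 had signals of -2.36 ± 2.70 in LKS cells, against -1.59 ± 2.85 in total BM. miR-433 had -9.86 ± 2.70 in LKS cells, against -6.87 ± 2.85 in total BM. In both groups these signals are within the range of undetected probes.

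On the Mirg side, which runs from miR-379 to miR-410, 36 of 38 names were detected on neither array, miR-494 and miR-134 being the others. The share among all mouse names was 416 of 566. The hairpin array on this side is known in mice for a role in newborn metabolism. Its first member, miR-379, had signals of -10.3 ± 2.70 in LKS cells, against -8.07 ± 2.85 in total BM. Its last, miR-410, had -5.10 ± 2.70 in LKS cells, against -4.51 ± 2.85 in total BM. miR-376a, of a family whose transcripts are edited in brain, had -11.0 ± 2.70 in LKS cells, against -8.37 ± 2.85 in total BM, and its relative miR-376c had -6.93 ± 1.91 and -5.17 ± 2.01. miR-541 had -4.42 ± 2.70 in LKS cells, against -4.21 ± 2.85 in total BM. None of these signals was above 0 on either array.

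Across the 48 members detected on neither array, signals ran from -11.9 to 3.04 in LKS cells with a median of -6.56, and from -9.34 to 4.25 in total BM with a median of -3.69. Both medians lay below those of all 416 undetected mouse miRNAs given above. Signals above 0 were found for 4 members in LKS cells and 8 in total BM, or 8.33% and 16.7% of the 48, against 11.5% and 24.5% of the 416. No member reached 2 of its errors on either array. Few of the 416 did so, 6 on the LKS array and 16 on the total BM array. Median errors were also larger for the members, 2.70 on LKS and 2.85 on total BM, against 1.91 and 2.02 for the 416. Larger errors make that level harder to reach, so this count does not set the members apart. The highest in LKS cells were miR-136, with 3.04 ± 2.72 in LKS cells, against 4.25 ± 2.87 in total BM, and miR-544, with 1.88 ± 1.92 in LKS cells, against 2.13 ± 2.02 in total BM. In total BM miR-136 was also the highest, followed by miR-329 and then miR-544. miR-154 had 1.22 ± 2.71 in LKS cells, against 1.36 ± 2.85 in total BM. With miR-329, given above, these were the 4 members above 0 in LKS cells and the 4 highest relative to their errors in total BM. The next in total BM, miR-434-3p, had -1.08 ± 2.70 in LKS cells, against 0.823 ± 2.85 in total BM, and the next in LKS cells, miR-369-5p, had -0.224 ± 2.71 and 0.432 ± 2.85. At these errors a level in either sample was not detectable for these 48 members, which does not show that it was absent.

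The 48 undetected members had nearly the same pattern of signals on both arrays. Their LKS signal was lower than the total BM signal in all 48, as in 401 of the 416 undetected mouse miRNAs. The gap was 0.137 to 6.72 units, with a median difference of -2.35, close to the -2.40 of all undetected miRNAs. After subtraction of that -2.40, none of the 48 differed by more than 2 combined errors in either direction, where 2.64% of the 416 did so towards lower LKS signals. The widest gap was that of miR-666-5p, with -10.0 ± 1.91 in LKS cells, against -3.30 ± 2.01 in total BM, which is 1.56 combined errors below the common offset. Across these 48 probes Spearman's rho between the arrays was 0.93, and across the 416 it was 0.87. The probes share both arrays, so these values describe how alike the arrays were near background and say nothing of expression.

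**Figure D4:**
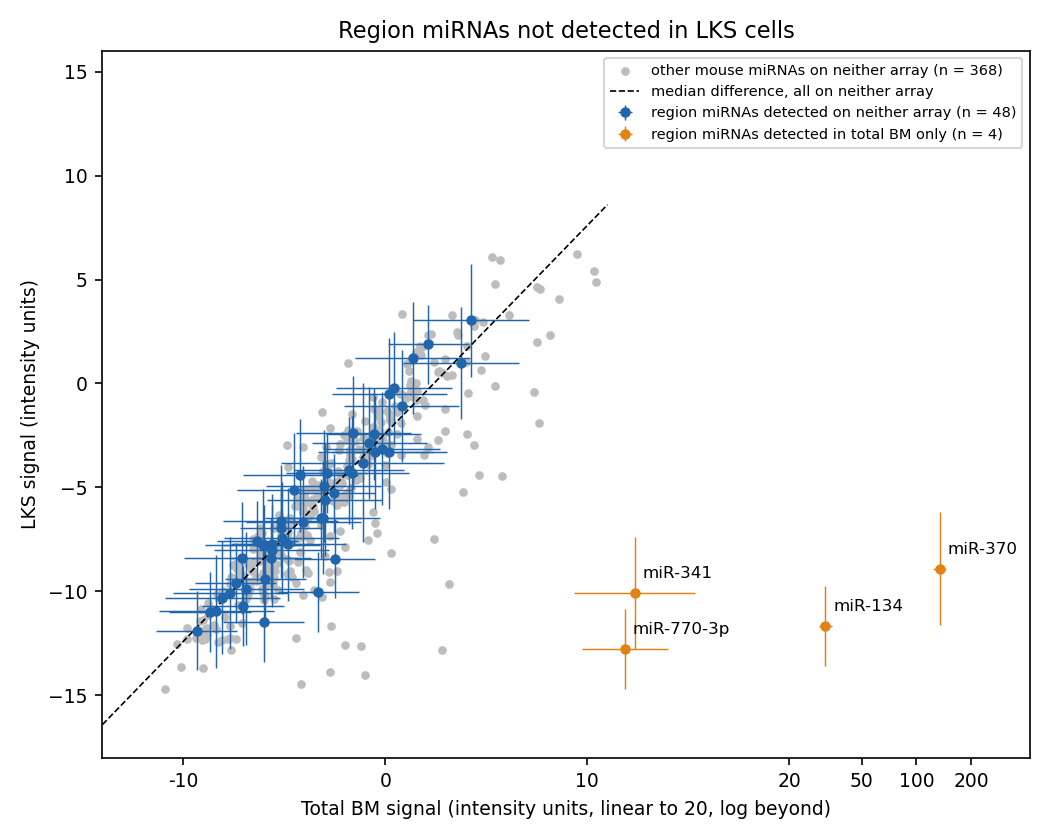
Signal in LKS cells (vertical axis, intensity units) against signal in total BM (horizontal axis, linear to 20 and logarithmic beyond) for the 52 region miRNAs not detected in LKS cells, with deposited errors as bars, and for the other 368 mouse miRNAs detected on neither array (grey). The 48 region miRNAs detected on neither array follow the dashed line of the median difference, and the 4 detected in total BM only lie to the right of it.

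In the authors' deposited table of log2-like values, miR-494 had 5.99 in LKS cells and 10.1 in total BM, which gives a difference of -4.12. For undetected members that table did not keep the direction of the raw signals: 19 of the 48 had a higher value in LKS cells, although all 48 raw signals were lower there. miR-541 had the largest such difference, with 0.947 in LKS cells, against -0.145 in total BM. Over all 416 undetected miRNAs, 162 were higher in LKS cells in that table.

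The sequences of the members were compared with their signals. The G content of the mature sequence was examined after the values had been seen, so it is a description only. miR-770-3p held 11 G, miR-370 and miR-134 held 10 each and miR-341 held 9. At least 9 G, the lowest count among these 4, was also found in miR-323-5p, miR-666-5p, miR-679 and miR-382, which were detected on neither array. miR-494, with 4 G and a GC content of 45.5%, was the one member detected on both arrays. GC content ran from 59.1% to 72.7% in the 4 detected in total BM only. In the 45 undetected members with a sequence it ran from 23.8% to 72.7%, with a median of 47.8%. Of the 12 members of at least 60% GC, 3 were detected on at least 1 array, and of the 38 under 60%, 2 were. Among all 566 mouse names, 150 were.

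Among these 45 undetected members, signals were lower where the sequence held more G. Spearman's rho of G count with signal was -0.59 in LKS cells, against -0.62 in total BM, and that of GC content was -0.57 and -0.48. The points share an array and its background. Members of at least 60% GC that were not detected had median signals of -8.42 in LKS cells, against -6.00 in total BM, and those under 60% had -5.01 and -3.07. The part of base content in the total BM signals of these 4 was not tested. The same comparison was not made over the whole array, because by name alone only 183 of the 566 names (32.3%) matched a single mature sequence. Assigning arms as was done for the members was not tried there.

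**Figure D5:**
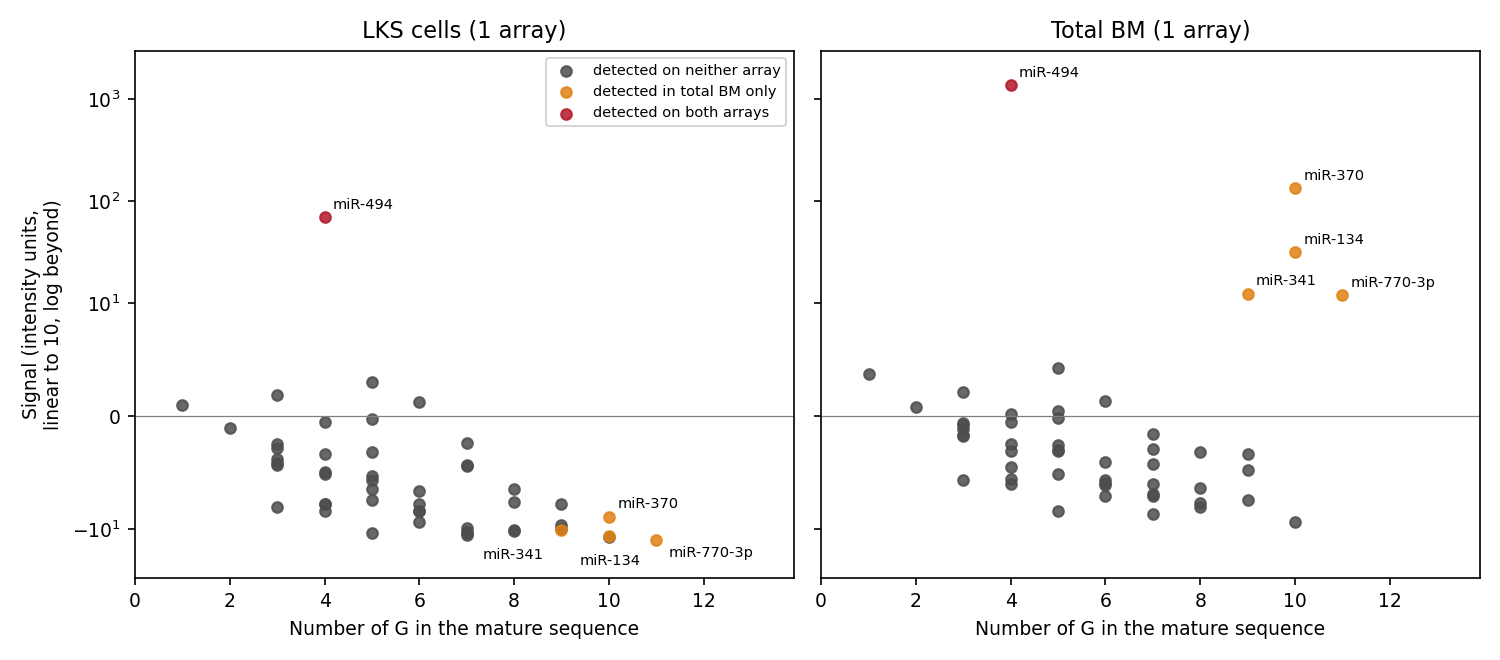
Signal of the 50 members with a sequence (vertical axis, intensity units, linear to 10 and logarithmic beyond) against the number of G in the mature sequence, in LKS cells (left) and total BM (right), with 1 array each. In total BM the 4 members detected there only stand at 9 to 11 G, and in LKS cells the same 4 lie between -12.8 and -8.90 units.

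Other names of the region gave no detected signal. The array held star strands, the minor hairpin arms, for 13 members, and 7 names of other miRNAs of the region (miR-453, miR-493, miR-882 and both arms of miR-540 and miR-654). All 20 were detected on neither array, as were 416 of all 566 mouse names. That share covers names of every kind, and most star strands across the array were undetected too. Their signals ran from -11.6 to 1.35 in LKS cells and from -7.95 to 1.75 in total BM, and none exceeded 1 of its errors. The highest on both arrays was miR-382*, with 1.35 ± 2.71 in LKS cells, against 1.75 ± 2.85 in total BM.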

How the data were processed

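Extraction (miRNeasy) and Cy3 labelling (Agilent's standard protocol) are as stated per the labels' protocols. Linear intensity values were deposited by the authors as "Total Gene Signal", per the file headers, beside a "Total Gene Error" and a detection call of 0 or 1. A second deposited table holds log2-like values. Not given in the sources used here: its constants, the scanner, the software and the rule behind the call. The intensities had been background-subtracted but not scaled, since 406 mouse names on LKS and 315 on total BM lie below 0 and the array percentiles differ. From these, each array's signals were scaled to their 75th percentile among shared detected miRNAs, and ratios taken as LKS over total BM. For a miRNA detected on 1 array, the bound used the dimmer array's own signal plus 2 errors, or its lowest detected signal if higher (2.91 on LKS, 1.01 on total BM). It leaves out the brighter signal's error. The number of arrays, 1 per group, limits the precision.

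The members, the lists and the rule for named miRNAs were chosen with earlier results of these data known. Named were all detected members, the 5 undetected ones with the highest signal over error on each array, partner arms, seed partners and 10 members chosen by name. The naming of miR-666-5p and of gene neighbours followed a look at their values. Alternatives were other scalings, thresholds, floors and detection rules. On simulated arrays of 566 miRNAs, the counting called 15 of 15 detected 4-fold increases, 15 of 15 decreases and 0 of 114 unchanged miRNAs. These counts were not divided by signal strength, so they do not show how the counting treats faint signals or bounds. Python 3.11.15, NumPy 2.4.6, pandas 2.3.3 and SciPy 1.17.1 were used.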

Additional observations from a re-analysis of the deposited data

How the results depend on the processing

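No paired analysis was possible because the groups hold a single array each, which also prevents leaving 1 out. The number of members detected, 1 in LKS cells and 5 in total BM, was the same when a signal above 2 or 3 of its errors, or above the highest undetected miRNA, was required. By the deposited call 17.3% and 25.6% of all mouse names were detected. Of the 416 mouse miRNAs detected on neither array, 6 in LKS cells and 16 in total BM exceeded 2 errors. The rule of the highest undetected miRNA could not add a member, because no undetected signal lies above it. The log2 ratio of miR-494, -3.59, was -4.31 without scaling, -3.34 with median scaling, -1.47 with the 75th percentile of all mouse miRNAs, -3.77 with non-miRNA probes, -3.00 with quantile normalization and -4.12 in the deposited value table. The ratio was -3.50 with recentred background, which moved it by less than its error. The scaling that gave -1.47 divided the LKS array by a signal near background. Without scaling the bounds were 46.1-fold for miR-370, 10.9-fold for miR-134, 4.24-fold for miR-341 and 4.07-fold for miR-770-3p. Median scaling, the only other scaling applied to the bounds, gave 23.5-fold for miR-370 and 5.54-fold for miR-134. With the brighter signal lowered by 2 errors they were 23.5-fold, 5.51-fold, 1.33-fold and 1.58-fold, and with recentred background 9.87-fold, 2.50-fold, 1.11-fold and 1.07-fold, in the same order. Both of these alternatives were chosen after seeing the data. The other floor for undetected signals could not move these bounds, since both floors come to the lowest detected LKS signal for all 4. The number of members at least 2-fold lower, 5, became 3 with a 4-fold threshold (beside 19.3% of the 150 miRNAs detected on at least 1 array), 3 with recentred background (20.7%) and 3 with the brighter signal lowered by 2 errors (29.3%). It was also 5 at 1.5-fold (44%), without scaling (52.7%) and with median scaling (32%).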
